A study of Mus musculus with 7 samples.

Results

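Collagens are the triple-helical proteins of the extracellular matrix, and the genes described here are those whose symbol has the form Col, a number, a and a number. They were found through the platform annotation as the probe sets annotated to exactly 1 such symbol, which gave 82 probe sets for 42 genes out of 45101 probe sets on the array. The 34945 probe sets that were tested, those with 1 gene symbol, cover 18193 genes. Quadriceps femoris muscle was profiled from mice that overexpress mutant Twinkle, the mitochondrial DNA helicase, and from wild-type mice, with 1 array per mouse. The mutant group held 3 mice, aged 24, 24 and 21 months in replicates 1 to 3, and the wild-type group 4 mice, aged 26, 24, 21 and 23 months in replicates 1 to 4. The labels give neither the promoter of the transgene nor the sex or strain of the mice. The arrays of a group are labelled as biological replicates, and p-values measure the spread between these mice.

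In skeletal muscle most collagen is made by fibroblasts of the connective tissue between and around the fibres. Fibrillar collagens assemble into the banded fibrils that carry tension, with type I as the bulk, type III beside it and type V in the fibril core. Type IV collagen forms the sheet-like network of the basement membrane that wraps every muscle fibre and capillary. The remaining types decorate fibrils (the FACIT group), form beaded filaments next to the basement membrane (type VI), build short-chain networks, anchor epithelia or span the cell membrane. The 82 probe sets split into 21 for 11 fibrillar genes, 12 for the 6 basement membrane genes Col4a1 to Col4a6, and 49 for 25 other genes.

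Values are given on the log2 scale as deposited, with the median of the 7 arrays set to 0 for every probe set. They compare arrays within a probe set and carry no level. A rough level of the median array was recovered from the spacing of the stored numbers, and it put 6 of the 82 probe sets between 8 and 16 on the log2 scale, 28 between 4 and 8 and 39 between 2 and 4, while 9 were not resolved. All 10 muscle fibre markers lay between 8 and 16, whereas of 9 measured cerebellum markers only Pvalb did, a calcium buffer that fast muscle fibres also make. The sample descriptions name cerebellum where the titles name skeletal muscle and the tissue entries quadriceps femoris, and the tissue entries were used. Over all probe sets, mutant replicate 2 and wild-type replicates 1 and 4 correlated with each other (Pearson's r from 0.36 to 0.49). They correlated negatively with wild-type replicate 3 (r from -0.44 to -0.34) and with mutant replicate 1 (r from -0.48 to -0.31). Wild-type replicate 3 and mutant replicate 1 correlated with each other at 0.32. Mutant replicate 2 and wild-type replicates 1 and 4 thus stood apart without regard to genotype, and no label names a batch.

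Wild-type replicate 3 carried the highest value of 45 of the 82 collagen probe sets, against 21.7% of all 34945 probe sets tested, and no collagen separated mutant from wild-type muscle past the threshold. Of the 3 classes, fibrillar collagens had the largest median range between highest and lowest array. It was 1.02 on the log2 scale for fibrillar, 0.52 for basement membrane and 0.65 for other collagens, and 0.56 over all probe sets tested. The lowest level class held 6 of 21 fibrillar, 8 of 12 basement membrane and 25 of 49 other probe sets. Within that level class the medians were 0.37, 0.47 and 0.48, so fibrillar collagens spread least there. For the remaining probe sets they were 1.81, 0.98 and 0.70. The highest array was wild-type replicate 3 for 17 of 21 fibrillar, 7 of 12 basement membrane and 21 of 49 other probe sets. The lowest array was most often mutant replicate 2, for 28 of the 82 (24.7% of all tested), or wild-type replicate 2, for 24 of the 82 (11.2% of all tested). The arrays with the most extreme collagen values thus came from both genotypes.

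**Figure D1:**
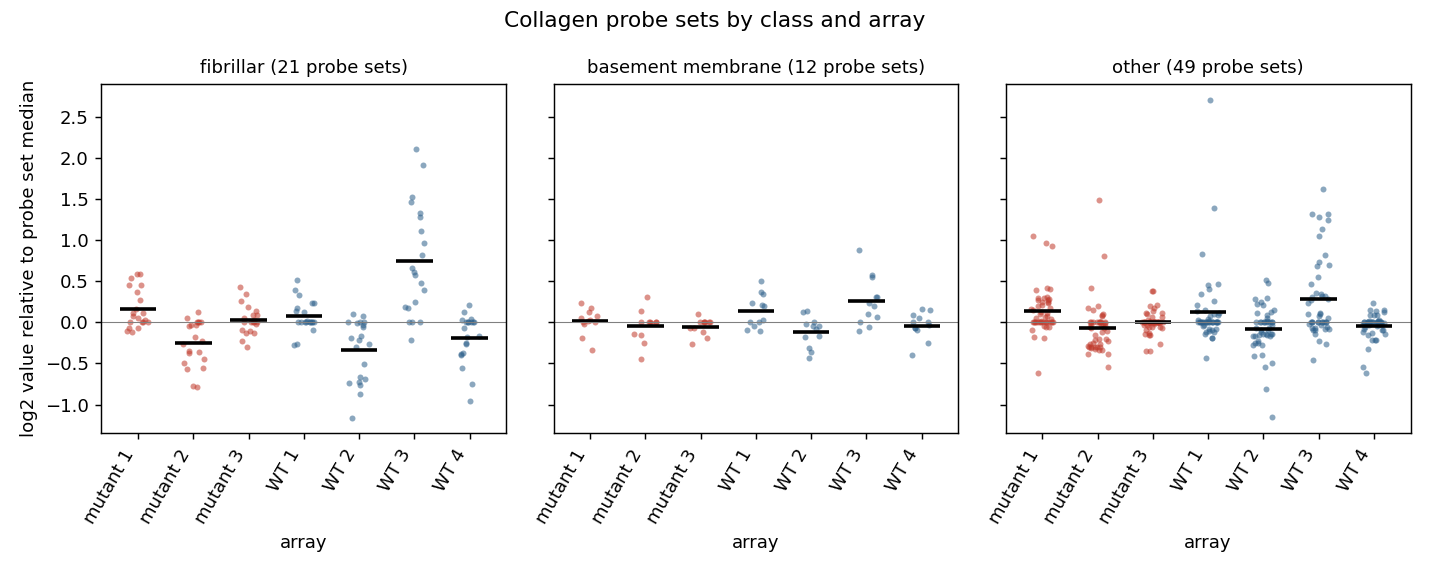
Each point is 1 collagen probe set on 1 array, with its log2 difference from the probe set's median on the vertical axis, mutant arrays in red and wild-type arrays in blue, and black bars for the class mean on that array. The fibrillar mean is 0.74 in wild-type replicate 3 and lies between -0.34 and 0.16 on the other 6 arrays.

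Promoter sequence was set beside these patterns for the collagens that shared wild-type replicate 3 as their highest array and for Col19a1, which did not. RefSeq windows on GRCm38.p6, each 250 bases before to 50 after a start site, were found for 33 of the 42 genes, 36 windows in all. The 150 bases before the start are shown, 5′ to 3′ on the gene's strand, with capitals for matches to TATAAA (the TATA box), CCAAT (the box bound by NF-Y) or GGGCGG (a GC box) on either strand. They lie at chr6:4505468-4505617 (plus strand) for Col1a2, chr1:45311388-45311537 (plus) for Col3a1, chr2:27886275-27886424 (plus) for Col5a1 and chr1:24587438-24587587 (minus) for Col19a1.
Col1a2: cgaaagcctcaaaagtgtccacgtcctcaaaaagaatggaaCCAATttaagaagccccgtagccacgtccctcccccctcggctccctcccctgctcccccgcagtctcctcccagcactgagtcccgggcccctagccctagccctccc
Col3a1: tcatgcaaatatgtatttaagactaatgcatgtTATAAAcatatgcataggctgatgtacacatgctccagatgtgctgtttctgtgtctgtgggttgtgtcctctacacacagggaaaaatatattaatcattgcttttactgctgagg
Col5a1: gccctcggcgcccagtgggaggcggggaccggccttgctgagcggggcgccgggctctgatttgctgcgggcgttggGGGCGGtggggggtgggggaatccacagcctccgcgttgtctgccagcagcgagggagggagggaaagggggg
Col19a1: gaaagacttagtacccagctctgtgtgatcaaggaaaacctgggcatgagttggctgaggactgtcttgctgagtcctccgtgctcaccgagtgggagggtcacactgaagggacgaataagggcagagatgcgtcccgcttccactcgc

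The 3 fibrillar promoters held a different motif each, although their genes had the same highest array, and the Col19a1 stretch held none of the 3. Over the whole windows, GGGCGG occurred in 22 of 36 collagen windows against 35.7% of all 32851 RefSeq windows, with 6 of 8 fibrillar, 4 of 5 basement membrane and 12 of 23 other windows. CCAAT occurred in 13 of 36 against 37.4%, and TATAAA in 5 of 36 against 13.6%. The motifs were searched separately and do not overlap each other in the stretches shown. A match is a stretch of letters and not a measured binding site, whatever the name of the motif. The TATAAA match of Col3a1 began at -117 relative to the start site.

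Fibrillar collagens averaged 0.16, -0.25 and 0.03 in mutant replicates 1 to 3 and 0.07, -0.34, 0.74 and -0.19 in wild-type replicates 1 to 4. Mutant muscle had a mean of -0.02 ± 0.21 (SD, n = 3) and wild-type muscle one of 0.07 ± 0.48 (SD, n = 4), so the mutant range lay inside the wild-type range. The difference of -0.09 turned to 0.13 without wild-type replicate 3. Members were chosen with earlier results of these data known, so class means are described without a test.

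Col3a1, the chain of type III collagen that forms fine reticular fibrils, had the widest range of all 82 probe sets. Its probe set 1427884_at measured 0.58, -0.57 and 0.00 in mutant and 0.39, -1.16, 2.10 and -0.96 in wild-type arrays, a 9.59-fold span between wild-type replicates 2 and 3. The mutant arrays fell between these extremes, and the genotypes overlapped. A second probe set, 1427883_a_at, recovered between 8 and 16, measured 0.37, -0.55 and 0.09 against 0.00, -0.87, 0.96 and -0.56 in the same order of arrays, with a log2 fold change of 0.09 ± 0.44 (SE). The 2 probe sets gave the same highest and the same lowest array.

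Col1a2, one of the chains of type I collagen, the main fibril protein of tendon and muscle connective tissue, followed a similar order. Its probe set 1450857_a_at, between 8 and 16, measured 0.54, -0.26 and 0.34 in mutant and 0.00, -0.30, 1.46 and -0.38 in wild-type arrays, with a log2 fold change of 0.01 ± 0.46 (SE). A second probe set, 1423110_at, reached 1.92 in wild-type replicate 3 and spanned 6.45-fold over the 7 arrays. Its last probe set, 1446326_at, lay in the lowest level class and spanned only 1.10-fold, so it did not carry the pattern of the other two. Col1a1, the partner chain of type I collagen, measured 0.27, -0.23 and 0.00 in mutant and 0.00, -0.66, 1.52 and 0.00 in wild-type arrays on 1423669_at. Its other probe set, 1455494_at, had wild-type replicates 3 and 1 close together at 0.66 and 0.51.

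Type V collagen, which starts and limits fibril assembly, was also highest in wild-type replicate 3, on every probe set of Col5a1 and Col5a2 and on 1 of the 2 of Col5a3. Col5a2 measured 0.46, 0.00 and -0.09 in mutant and 0.14, -0.76, 1.33 and -0.37 in wild-type arrays on 1422437_at. Col5a1 reached 1.28 in wild-type replicate 3 on 1416740_at, 0.81 on 1434479_at and 0.39 on 1416741_at. The last of these measured 0.00, -0.35 and -0.13 in mutant and 0.00, -0.19, 0.39 and 0.00 in wild-type arrays (log2 fold change -0.21 ± 0.16, SE). The values of Col1a1 and of the named probe sets 1427884_at, 1423110_at, 1422437_at and 1416740_at were picked for display after they were seen, as were those below of Col4a2 1424051_at, Col6a1, Col19a1 and every other collagen probe set outside the rule for naming.

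The fibrillar collagens of cartilage and the minor chains varied less, and none of them spanned more than 2.03-fold. Col2a1, the main collagen of cartilage, ranged from -0.78 in mutant replicate 2 to 0.24 in wild-type replicate 3. Col11a1, its partner in cartilage fibrils, measured -0.06, -0.45 and 0.09 in mutant and 0.00, -0.26, 0.57 and 0.21 in wild-type arrays on 1418599_at (log2 fold change -0.27 ± 0.22, SE). Col11a2 measured 0.03, -0.37 and -0.30 against -0.26, 0.10, 0.00 and 0.12 (-0.20 ± 0.14, SE), with wild-type replicate 3 in the middle. Col27a1, a fibrillar chain of developing cartilage, was highest in wild-type replicate 3 on both probe sets, at 0.61 and 0.18. Col24a1, a minor chain known from developing bone, was an exception, with its lowest value, -0.21, in wild-type replicate 3. By recovered level, the 15 fibrillar probe sets not placed in the lowest class, 3 of them unresolved, were all highest in wild-type replicate 3, where they averaged 1.00, while the 6 in the lowest class averaged 0.09 there. In the lowest class the median range was 0.37 for fibrillar probe sets and 0.41 for all probe sets tested.

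**Figure D2:**
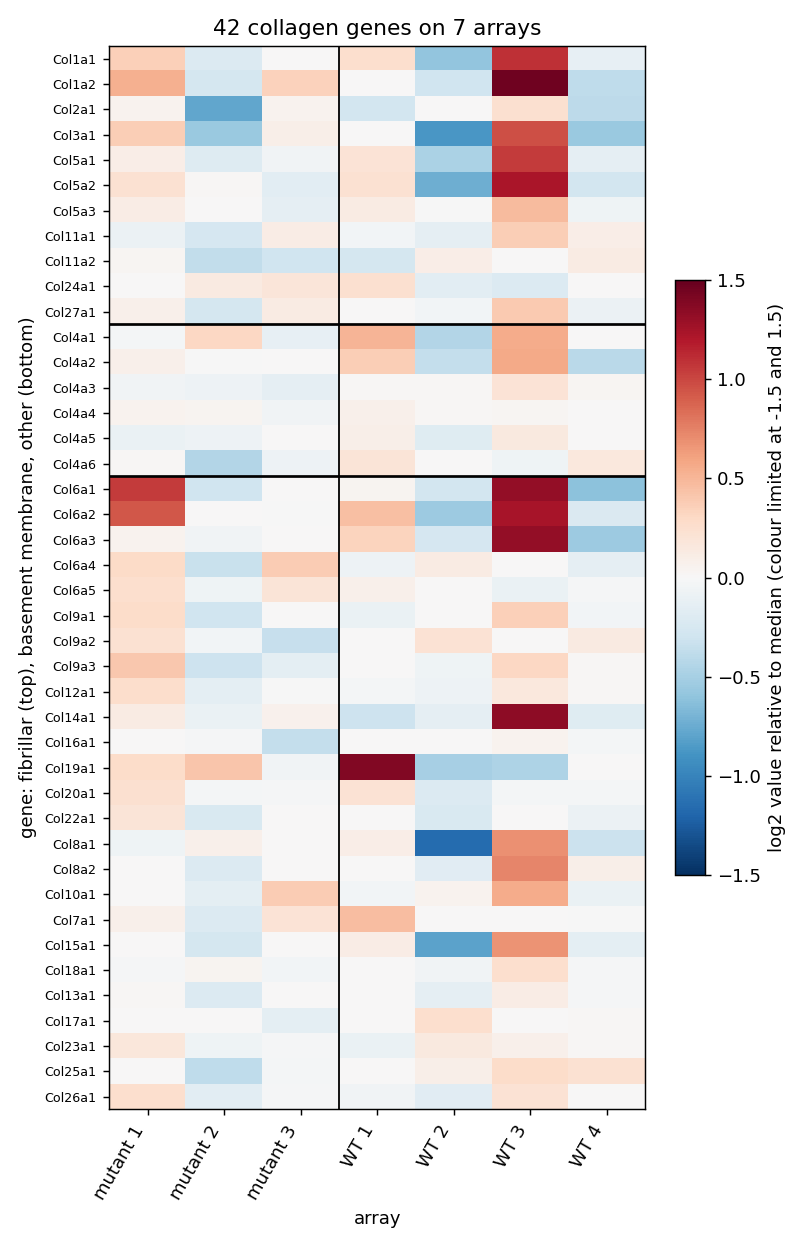
Rows are the 42 collagen genes and columns are the 7 arrays. Fibrillar genes are at the top, basement membrane genes in the middle and other genes at the bottom. Colour gives the log2 value relative to the median, averaged over the gene's probe sets in its highest most probable level class. Col1a1, Col1a2, Col3a1, Col5a1, Col5a2, Col6a1, Col6a2, Col6a3 and Col14a1 are deep red in wild-type replicate 3. Col19a1 is deep red in wild-type replicate 1, and Col6a1 is deep red in mutant replicate 1 as well.

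Basement membrane collagens averaged 0.01, -0.05 and -0.05 in mutant and 0.14, -0.12, 0.25 and -0.04 in wild-type arrays. Group means were -0.03 ± 0.04 (SD, n = 3) and 0.06 ± 0.17 (SD, n = 4), again with the mutant range inside the wild-type range. The widest spread was that of Col4a1 and Col4a2, the chains found in every basement membrane. Their 3 probe sets averaged 0.04, 0.02 and -0.04 in mutant and 0.37, -0.32, 0.67 and -0.22 in wild-type arrays. Wild-type replicates 1 and 3 were thus high and replicates 2 and 4 low, while the mutant means lay near 0. In mutant replicate 2 that mean averaged opposite values of the 2 Col4a1 probe sets, 0.31 on 1452035_at and -0.25 on 1426348_at. Col4a1 on 1452035_at, between 8 and 16, measured -0.02, 0.31 and -0.12 in mutant and 0.50, -0.43, 0.55 and 0.00 in wild-type arrays (log2 fold change -0.10 ± 0.26, SE). Col4a2 on 1424051_at measured 0.08, -0.01 and 0.00 against 0.37, -0.36, 0.57 and -0.40.

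The other 4 basement membrane chains, Col4a3 to Col4a6, which in mammals are restricted to tissues such as kidney glomerulus, lung, eye and smooth muscle, averaged between -0.07 and 0.12 on the 7 arrays, and 8 of their 9 probe sets lay in the lowest level class. Col4a3 on 1438779_at measured -0.34, 0.00 and -0.20 in mutant and 0.00, 0.13, 0.10 and 0.05 in wild-type arrays. Mutant replicate 2 was level with wild-type replicate 1, so the groups touched. Its log2 fold change was -0.25 ± 0.10 (SE; adjusted p = 1), with the smallest p of all 82 probe sets. The second Col4a3 probe set differed by -0.06. Col4a6 on 1421006_at measured 0.02, -0.44 and -0.07 against 0.20, 0.00, -0.06 and 0.16 (-0.24 ± 0.13, SE), and Col4a4 on 1445328_at measured 0.00, 0.13 and -0.27 against 0.34, -0.02, -0.11 and 0.14 (-0.13 ± 0.15, SE). Both overlapped between genotypes.

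Fibrillar minus basement membrane means measured 0.15, -0.21 and 0.08 in mutant and -0.06, -0.23, 0.49 and -0.15 in wild-type arrays. The balance between the 2 classes therefore varied more within each genotype, with SDs of 0.19 and 0.32, than between the group means of 0.01 in both. Wild-type replicate 1 had fibrillar and basement membrane means of 0.07 and 0.14, and wild-type replicate 3 had 0.74 and 0.25. The basement membrane mean was thus the higher of the 2 in replicate 1 and the fibrillar mean in replicate 3. Fibrillar probe sets differed in replicate 1. Col1a1 1455494_at measured 0.51 and Col3a1 1427884_at 0.39 there, but Col1a1 1423669_at, Col1a2 1450857_a_at and Col3a1 1427883_a_at measured 0.00.

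The beaded filament collagens of type VI, whose loss causes human muscular dystrophies, were high with the fibrillar class in wild-type replicate 3 and also in mutant replicate 1. The median range of their 7 probe sets, 2 of them in the lowest level class, was 1.68. It was 1.02 for all fibrillar probe sets and 1.81 for those not placed in the lowest level class. Col6a2 on 1452250_a_at, between 8 and 16, measured 0.93, 0.00 and 0.00 in mutant and 0.45, -0.54, 1.24 and -0.21 in wild-type arrays (log2 fold change 0.08 ± 0.45, SE). Col6a1 measured 1.05, -0.30 and 0.00 against 0.04, -0.28, 1.32 and -0.62. Col6a3, the third chain of the type VI trimer in muscle, reached 1.32 in wild-type replicate 3 but only 0.05 in mutant replicate 1. The chains of this trimer thus diverged in that 1 array, where 18S ribosomal RNA, from control probe sets, averaged 3.19 against -0.77 to 0.56 elsewhere. The part of that control signal in the Col6a1 and Col6a2 values was not tested. Col6a4 and Col6a5, which in mouse form alternative partners of the first pair of chains, spanned 1.27-fold to 1.65-fold.

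Among FACIT collagens, 5 of 24 probe sets were highest in wild-type replicate 3, near the 21.7% of all probe sets tested. Col14a1, which binds the surface of type I fibrils, reached 1.62 in that array on 1427168_a_at and 1.05 on 1428455_at. The other 6 arrays were at or below 0.25 on these probe sets, while its probe set in the lowest level class measured -0.07 in wild-type replicate 3. Col12a1, a related fibril-surface collagen of tendon and muscle, reached 1.14 there on 1434411_at, a probe set in the lowest level class. Its 3 other probe sets were highest elsewhere. Col19a1, known from developing mouse muscle, had a different order. Its probe set 1421698_a_at measured 0.28, 1.48 and -0.15 in mutant and 2.71, -0.41, -0.27 and 0.00 in wild-type arrays, an 8.66-fold span, although its median array lay in the lowest level class. On 1456953_at the same arrays stood out less, with 1.39 in wild-type replicate 1 and 0.42 in mutant replicate 2, and the last probe set, also in the lowest level class, spanned 1.17-fold. Col22a1, a collagen of the junction between muscle and tendon, was likewise highest in wild-type replicate 1 and mutant replicate 2 on 1453084_s_at, at 0.83 and 0.80, and lowest in mutant replicate 1 at -0.61. Another Col22a1 probe set, 1446851_at, recovered between 8 and 16, measured 0.19, -0.22 and 0.00 in mutant and 0.00, -0.22, 0.00 and -0.09 in wild-type arrays and did not share that order.

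Col9a3, a cartilage FACIT chain, gave the only collagen probe set whose genotypes did not overlap. Its probe set 1420280_x_at measured 0.04, 0.20 and 0.12 in mutant and -0.09, -0.12, 0.00 and -0.09 in wild-type arrays (log2 fold change 0.19 ± 0.08, SE; adjusted p = 1). The same separation was seen in 1.10% of the 34945 probe sets tested, and 1 of 82 is close to that share. The probe set lies in the lowest level class, its suffix marks probes that may bind other transcripts, and the 2 other Col9a3 probe sets differed by -0.03 and -0.08.

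The short-chain and multiplexin collagens were also highest in wild-type replicate 3 on every probe set. Col8a1, a network collagen of vessel walls, measured -0.06, 0.08 and 0.00 in mutant and 0.10, -1.16, 0.69 and -0.33 in wild-type arrays on 1455627_at, between 8 and 16 (log2 fold change 0.18 ± 0.39, SE). Its 2 other probe sets differed by -0.21 and -0.30, so the sign depended on the probe set. Col15a1, found in the basement membrane zone of muscle fibres and capillaries, ranged from -0.81 in wild-type replicate 2 to 0.68 in replicate 3. Col18a1, the precursor of endostatin, reached 0.28 and 0.23 in that replicate on its 2 probe sets. Transmembrane collagens spanned at most 1.58-fold. Col13a1, found at the neuromuscular junction, spanned 1.24-fold. Col25a1, needed in mice for motor axons to enter muscle, measured 0.00, -0.38 and -0.03 in mutant and 0.00, 0.09, 0.28 and 0.23 in wild-type arrays on 1421427_at (log2 fold change -0.29 ± 0.13, SE). Col23a1 on 1429210_at measured 0.29, 0.18 and 0.00 against -0.11, -0.07, -0.08 and 0.03 (0.22 ± 0.10, SE), and its 2 other probe sets differed in the opposite direction by -0.09 and -0.16. Col7a1, the anchoring fibril collagen of skin, and Col17a1, a hemidesmosome component, spanned 1.59-fold and 1.32-fold.

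The genotype comparison asks whether the mutant Twinkle transgene altered collagen expression in aged muscle. With limma over 34945 probe sets, 0 of the 82 collagen probe sets had an adjusted p under 0.05, and neither did any other probe set (0.00% called). At an unadjusted p under 0.05 there were 2 collagen probe sets, the Col4a3 and Col9a3 probe sets described above, against 1.79% of all probe sets. The Col9a3 probe set was the 1 higher in mutant muscle (1.20% of all tested) and the Col4a3 probe set the 1 lower (0.592% of all tested). Log2 fold changes ran from -0.35 to 0.22 with a median SE of 0.16. The number of arrays limits the precision of this comparison, most of all for probe sets such as Col3a1 1427884_at, whose SE was 0.77.

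Negative differences outnumbered positive ones, with 57 of 82 probe sets below 0 against 51.7% of all tested, and the median difference was -0.05 against -0.01 over all tested. The count moved with single arrays of both genotypes. Without wild-type replicate 3, 39 of 82 were negative against 50.6% of all tested, and the median was 0.01. Without mutant replicate 2 the count was 43 of 82 against 51.2%, and without wild-type replicate 2 it was 67 of 82 against 51.5%. By class, 17 of 21 fibrillar probe sets were negative with all arrays and 9 of 21 without wild-type replicate 3. The counts were 9 and 6 of 12 for basement membrane and 31 and 24 of 49 for other collagens. Of the 27 genes with more than 1 probe set, 11 had probe sets that all differed in the same direction.

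**Figure D3:**
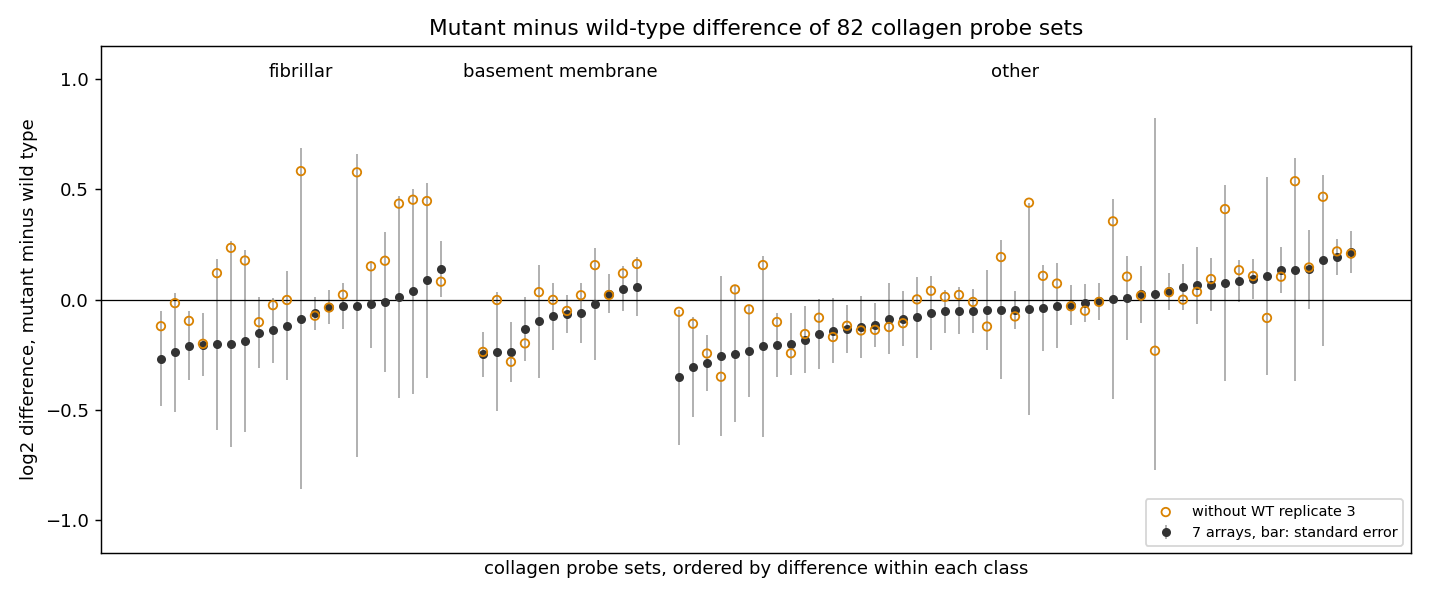
Black points give the log2 difference, mutant minus wild type, of each of the 82 collagen probe sets with limma's standard error as the bar, ordered by size within each class; open circles give the same difference without wild-type replicate 3. All 82 black points lie between -0.35 and 0.22, and the highest open circles, at 0.58, are those of Col3a1 1427884_at and Col1a2 1423110_at.

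Markers of other cell types were high together with the collagens in wild-type replicate 3. The 10 fibroblast markers that are not collagens averaged 0.80 there against -0.26 to 0.30 on the other 6 arrays, and 8 of the 10 were highest there. The 8 tendon markers averaged 0.98 against -0.37 to 0.21, with 7 of 8 highest there, the 6 measured adipocyte markers averaged 0.89, and the 8 leukocyte markers 0.74. The means there were 0.29 for Schwann and nerve, 0.12 for erythroid and -0.15 for satellite cell markers. The 10 muscle fibre markers were lowest there, at a mean of -0.49 against -0.08 to 0.10. The Gapdh control, whose 5 prime signal minus 3 prime signal is read as a sign of RNA integrity, gave -0.55 in this array against at least -0.040 elsewhere, while beta-actin gave 0.12 against -0.14 to 0.12. The part of tissue composition or RNA quality in the collagen values was not tested. In whole muscle, more fibroblasts and more collagen RNA per fibroblast cannot be told apart.

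These marker lists did not follow the collagens in every array. Wild-type replicate 1 had the lowest fibroblast mean, -0.26, with a fibrillar mean of 0.07 and a Col4a1 and Col4a2 mean of 0.37. Wild-type replicate 2 had the lowest fibrillar mean, -0.34, with a fibroblast mean of -0.07 and an adipocyte mean of 0.52. Endothelial and mural markers, from cells that make type IV collagen, averaged 0.12, 0.05 and 0.11 in mutant and -0.07, 0.00, -0.15 and -0.27 in wild-type arrays. Every mutant mean of this list was above every wild-type mean, a difference that was not tested. The markers were therefore not high in wild-type replicates 1 and 3, where Col4a1 and Col4a2 were.

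**Figure D4:**
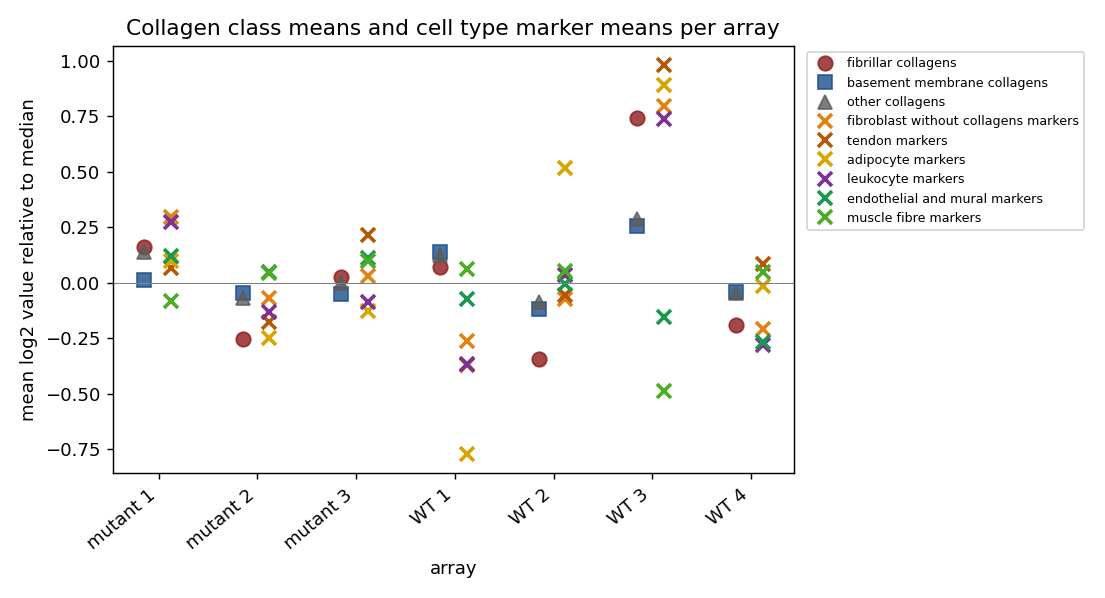
For each array the filled symbols give the mean log2 value relative to the median of fibrillar, basement membrane and other collagens, and the crosses give the means of 6 cell type marker lists. In wild-type replicate 3 the fibrillar mean of 0.74 sits beside leukocyte, fibroblast, adipocyte and tendon means of 0.74 to 0.98, and the muscle fibre mean is -0.49.

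Genes that make, process, bind or degrade collagen were described beside the collagens. Of 61 such genes 56 were measured on 121 probe sets, of which 0 passed the adjusted threshold, and at an unadjusted p under 0.05 there was 1 higher and 1 lower in mutant muscle, against 1.20% higher and 0.592% lower over all probe sets tested. Those 2 of 121 are near that background. Plod2, which hydroxylates telopeptide lysines for crosslinking, measured -0.30, -0.15 and -0.12 in mutant and 0.27, 0.06, 0.20 and 0.00 in wild-type arrays on 1416686_at (log2 fold change -0.32 ± 0.10, SE; adjusted p = 1). Every mutant value was below every wild-type value, which held for 0.941% of all probe sets tested and for 1 of these 121. Its other probe set differed by 0.06. Mia3, which loads procollagen into transport carriers, measured 0.00, 0.74 and 0.53 against 0.00, 0.00, -0.46 and 0.00 (0.54 ± 0.20, SE), and its 3 other probe sets ran from -0.15 to 0.00.

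The lists differed in how closely they followed the fibrillar collagens across arrays. The fibril-associated proteins Dcn, Bgn, Lum, Fmod and Sparc averaged 1.02 in wild-type replicate 3 against -0.28 to 0.14 elsewhere, and 13 of their 15 probe sets were highest there, and Lum, Dcn and Fmod are also among the fibroblast or tendon markers above. Fmod, the proteoglycan fibromodulin, measured 1.29 there on 1456084_x_at (log2 fold change -0.29 ± 0.37, SE), and Dcn, decorin, gave a log2 fold change of 0.10 ± 0.155 (SE) on 1441506_at. Propeptide removal and crosslinking enzymes averaged 0.47 there, degradation genes 0.37, and hydroxylation and folding genes 0.33. The receptors averaged 0.04 and the regulators of the TGF-beta pathway -0.14 in that array, with 4 of 20 and 4 of 18 probe sets highest there. The smallest p-values in the remaining lists were those of Tll2 (-0.16 ± 0.09, SE) and Adamts3 (-0.12 ± 0.10) among propeptide proteases, Itgb1 (0.21 ± 0.10) and Ddr1 (-0.26 ± 0.16) among receptors, Mmp8 (-0.20 ± 0.12) and Mmp14 (0.33 ± 0.24) among matrix proteases, and Smad2 (-0.24 ± 0.13) and Tgfb1 (-0.25 ± 0.20) among regulators.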

How the data were processed

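Expression was measured on 1 single-colour Affymetrix array per mouse. The values, as deposited, are on a log2 scale and centred on each probe set's median. The centring was read from the table itself, as the median was exactly 0 in all 45101 rows. Levels before centring were searched only between 2 and 16, so the number spacing does not test the log2 scale. The submitters' processing notes name GCOS 4.0, and the summary method and scaling are not given in the sources used here. Of the collagen values 25.4% were exactly 0, and 37 of 82 probe sets had more than 1 array at 0, against 56.4% of all probe sets. Level classes (2 to 4, 4 to 8, 8 to 16) needed a posterior of at least 0.75 and are approximate. Array precision is limited by the number of arrays.

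Probe sets were named by the platform annotation, with symbols updated by Entrez identifier through a RefSeq table (GRCm38.p6), which changed 0 collagen symbols. The 34945 probe sets with 1 symbol that are no controls entered a two-sided fit with lmFit and eBayes of limma 3.58.1 (R 4.3.3), with no covariate or dim filter. P-values were adjusted over all of them by Benjamini-Hochberg at a threshold of 0.05, and SE is the standard error limma gives. The fit was tested on simulated data. Alternatives were quantile normalization, 1 value per gene, the lowest level class left out, a variance trend, age, replicate blocks and leaving out each array. A block of 3 arrays was added after the data were seen. Members, lists and tests were chosen with earlier results of these data known. Values per array are given for collagen probe sets between 8 and 16, those without overlap, and the 3 smallest p-values per class, and other collagen probe sets were chosen for display after their values were seen. From each pathway list the 2 genes with the smallest p are named.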

Additional observations from a re-analysis of the deposited data

How the results depend on the processing

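The count of 0 collagen and 0 pathway probe sets past the adjusted threshold held under all 14 alternatives fitted, where the smallest adjusted p of a collagen was 0.845. At an unadjusted p under 0.05 the collagen count ran from 0 to 4. The class differences moved by less than 1 SD between replicates under all 16 settings tried (47 values), but leaving out 1 array gave -0.23 to 0.13 for fibrillar, -0.15 to -0.02 for basement membrane and -0.10 to 0.03 for other collagens. Quantile normalization turned the fibrillar difference from -0.09 to 0.02 and left 48 of 82 collagen differences negative. With 1 value per gene, 29 of 42 genes were negative. Leaving out probe sets whose most probable level class was the lowest, 28 of 42 were negative. Leaving out 1 array gave 39 to 67 of 82. With a block for the 3 arrays standing apart, chosen after seeing the data, the differences were -0.14, -0.09 and -0.06. Within these 3 arrays they were -0.20, -0.10 and -0.11, and within the other 4 -0.10, -0.09 and -0.03.

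Deviations of same-numbered mutant and wild-type arrays correlated at -0.49, -0.32 and 0.15. Arrays with different numbers correlated from -0.50 to 0.55, so these values cannot tell whether the replicate numbers pair the mice. Ages matched in replicate 2 (24 months) and replicate 3 (21 months) but not in replicate 1 (24 against 26 months). With a replicate block over replicates 1 to 3 the class differences were -0.18, -0.12 and -0.09 and 0 collagens passed. The block turned the log2 fold change to -0.18 for Col1a2 1450857_a_at, -0.060 for Col3a1 1427883_a_at and -0.074 for Col6a2 1452250_a_at. Col1a2 was also -0.094 with age as a covariate and -0.11 with the 3-array block. With 1 value per gene Col23a1 was -0.0087 and Col9a3 -0.081. Leaving out 1 array gave -0.18 to 0.43 for Col1a2, -0.17 to 0.45 for Col3a1, -0.23 to 0.41 for Col6a2, -0.15 to 0.47 for Col8a1 1455627_at, -0.30 to 0.033 for Col4a1 1452035_at and -0.033 to 0.17 for Col22a1 1446851_at. None of these fold changes passed the threshold in any fit, and the cause of the reversals other than those of Col23a1 and Col9a3 was not tested. No wild-type array was far enough from the other wild-type arrays to pass Dixon's test in the 18 wild-type groups of 4 tested. Those groups did not cover every collagen probe set, and the mutant arrays were not tested. The test result therefore holds for the tested groups only and not for all collagen probe sets. On Col14a1 1427168_a_at, for example, wild-type replicate 3 measured 1.62, and wild-type replicates 1, 2 and 4 measured -0.43, -0.28 and -0.22. On Col1a1 1455494_at, in contrast, wild-type replicates 3 and 1 were close, at 0.66 and 0.51.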
